A study of Mus musculus with 8 samples.

Results

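Cadherins and protocadherins were examined in adhesion-related macrophages (ARMs) and in macrophages of the stromal vascular fraction (SMs, titled NARM by the submitters). The members were the genes whose symbol was Cdh followed by a number, or Pcdh followed by a number or by the cluster letter a, b or g. The rule gave 75 of the 18040 genes listed in either of the 2 deposited tables, with 73 in the table of mice on a high-fat diet (HFD) and 66 in that of mice on normal chow (ND). All samples were macrophages of wild-type (WT) male C57BL/6J mice, taken from epididymal white adipose tissue (eWAT). Mice were given either diet from an age of 6 weeks, and the HFD for 8 weeks. ARMs were released from the floating adipocyte layer after collagenase digestion, SMs came from the pelleted fraction, and both were sorted on surface CD45, CD11b and F4/80. RNA-seq gave 2 libraries for each of the 4 groups (HFD ARM, HFD SM, ND ARM and ND SM), each pooled from 6 HFD mice or 10 ND mice, so that p-values measure the spread between 2 pools and not between animals.

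Cadherins are calcium-dependent adhesion proteins that mostly bind a like molecule on the neighbouring cell. Classical cadherins (types I and II) bind catenins through their cytoplasmic tail, which ties the contact to actin. T-cadherin, the product of Cdh13, has no tail: it is held in the membrane by a lipid anchor and binds adiponectin. Protocadherins lack the catenin-binding tail. The clustered ones are made from rows of alternative first exons in the alpha, beta and gamma clusters, and those of the alpha and gamma clusters are spliced to shared constant exons. They are known best from neurons. In adipose tissue, VE-cadherin (Cdh5) is the classical cadherin of endothelial junctions and Cdh11 that of fibroblasts.

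Most members were scarce. The filter on low counts (edgeR filterByExpr, minimum count 10) left 35 members measurable in HFD mice and 27 in ND mice, and each of these 27 was also measurable in HFD mice. The other 38 listed members in HFD mice and 39 in ND mice were not tested. The highest estimated count of an untested member in any library was 13.4 in HFD mice and 26.4 in ND mice, with totals of 14508824 to 19040133 counts per library. All members together took 0.00893% to 0.0161% of a library's counts. For members that did not pass the filter, whether ARMs and SMs differed within that diet is therefore not known from these fits.

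By subfamily, the type I cadherins had 1 measurable member of 4 listed in HFD mice (Cdh2) and 0 of 4 in ND mice. The type II cadherins had 4 of 9 and 3 of 6, and the cadherins outside these types 3 of 4 and 1 of 3. Non-clustered protocadherins had 6 of 11 in HFD mice and 5 of 10 in ND mice. Of the clustered protocadherins, 18 of 22 gamma genes were measurable in HFD mice and 16 of 22 in ND mice, but only 2 of 20 and 1 of 19 beta genes and 1 of 3 and 1 of 2 alpha genes. The gamma cluster thus supplied more measurable members than any other set, and 49 of the 75 members lie on chromosome 18.

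The level summed over members was higher in ARMs of both diets. In FPKM, a level per length of transcript and per sequenced library, the sum was 35.4 and 34.7 in HFD ARM replicates 1 and 2 against 23.7 and 22.6 in HFD SM, and 24.4 and 31.3 in ND ARM against 20.1 and 20.9 in ND SM. The ARM and SM libraries did not overlap in either diet. Cdh5 alone made up 32.3% and 30.4% of the sum in HFD ARM, 20.7% and 14.9% in HFD SM, 12.05% and 17.96% in ND ARM and 11.6% and 12.9% in ND SM. It was the most abundant member in HFD ARMs, where 70.8% of listed genes had a lower mean FPKM.

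Transcripts of other cell types moved along with these values. The marker list for endothelial cells summed to 62.4 and 59.0 FPKM in HFD ARM against 24.4 and 17.3 in HFD SM, with 14 of 15 genes called higher, and to 14.3 and 31.8 in ND ARM against 11.7 and 14.1 in ND SM, with 1 called. The fibroblast and progenitor list summed to 201 and 241 against 153 and 137 in HFD mice (6 of 13 called). In ND mice it summed to 252 and 370 against 94.0 and 125 (11 of 13 called). Not all of this list moved that way in HFD mice, where 9 of 13 log2 fold changes lay above 0. Pi16, Fbn1, Mfap5 and Dpp4 lay below 0 there, at -0.44, -0.22, -0.16 and -0.09, and none was called. The pericyte and smooth muscle list had 4 of 10 genes called higher in HFD mice and 3 of 9 tested in ND mice, and the adipocyte list 9 of 10 and 7 of 10. No gene of these 4 lists was at 0 in any library. In contrast, 0 of 14 macrophage markers (Adgre1, Csf1r and Cd68 among them) were called in either diet, and their sum lay between 16563 and 19639 FPKM in all 8 libraries. The mesothelial list had 0 of 10 tested genes called in HFD mice and 8 of 10 in ND mice, the lymphatic list 3 of 6 and 4 of 6, and the dendritic, B, and T and NK cell lists 0 in either diet. The part of other cells' RNA in the cadherin results was not tested, and in sorted bulk samples more cells of a type and more RNA per cell cannot be told apart.

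In HFD mice, 7 members were higher in ARMs than in SMs and 0 were lower. They were Cdh5, Cdh13, Pcdh1, Pcdh7, Pcdh19, Cdh2 and Pcdhgc3. Calls required a 1.5-fold difference and an adjusted p below 0.05 in the quasi-likelihood test of edgeR, adjusted by Benjamini-Hochberg over all 13337 genes tested. By the same rule 4.46% of all genes tested were higher and 0.292% lower (4.75% in all). The median log2 fold change was 0.29 over the 35 members and -0.01 over all genes, and 26 members lay above 0 against 48.5% of all genes. At an unadjusted p under 0.05, 8 members were higher and 2 lower, while 23.2% of all genes passed in either direction. The DESeq2 test called 5 of the 7 (all but Cdh2 and Pcdhgc3), and it called 2.79% of all genes higher.

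In ND mice, 1 member was higher in ARMs, Pcdhgc3, and 0 were lower, against 3.55% and 0.129% of the 12441 genes tested (3.68% in all). At an unadjusted p under 0.05, 9 members were higher and 1 was lower, against 14.9% of all genes in either direction. DESeq2 called Pcdhgc3 alone, and 2.17% of all genes higher. The median log2 fold change was 0.50 over the 27 members and -0.02 over all genes, and 21 members lay above 0 against 46.5% of all genes. The CPM values (counts scaled to library size) of ARM and SM libraries did not overlap, with ARMs higher, for 17 members in ND mice (21.1% of all genes) and for 16 in HFD mice (26.2% of all genes). With ARMs lower there were 2 such members in ND mice (22.8% of all genes) and 3 in HFD mice (26.5% of all genes). A call in HFD mice beside none in ND mice does not by itself show a difference between diets. The fit of all 8 libraries, which has its own filter, tested 35 members: 33 of those measurable in HFD mice (not Cdh7 and Cdh16) and Pcdhga3 and Pcdhga8, measurable in neither diet by itself. Of these, 0 of 35 were called different between diets in their ARM against SM change by edgeR or DESeq2, against 0.165% of all genes by edgeR. With 2 pools per group, the lack of a call does not show that the diets agree. At an unadjusted p under 0.05 there were 5, Cdh11, Pcdhga2, Pcdhga3, Pcdhga8 and Pcdhgc5, against 7.61% of all genes. The plot of fold changes shows the wider errors in ND mice.

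**Figure D1:**
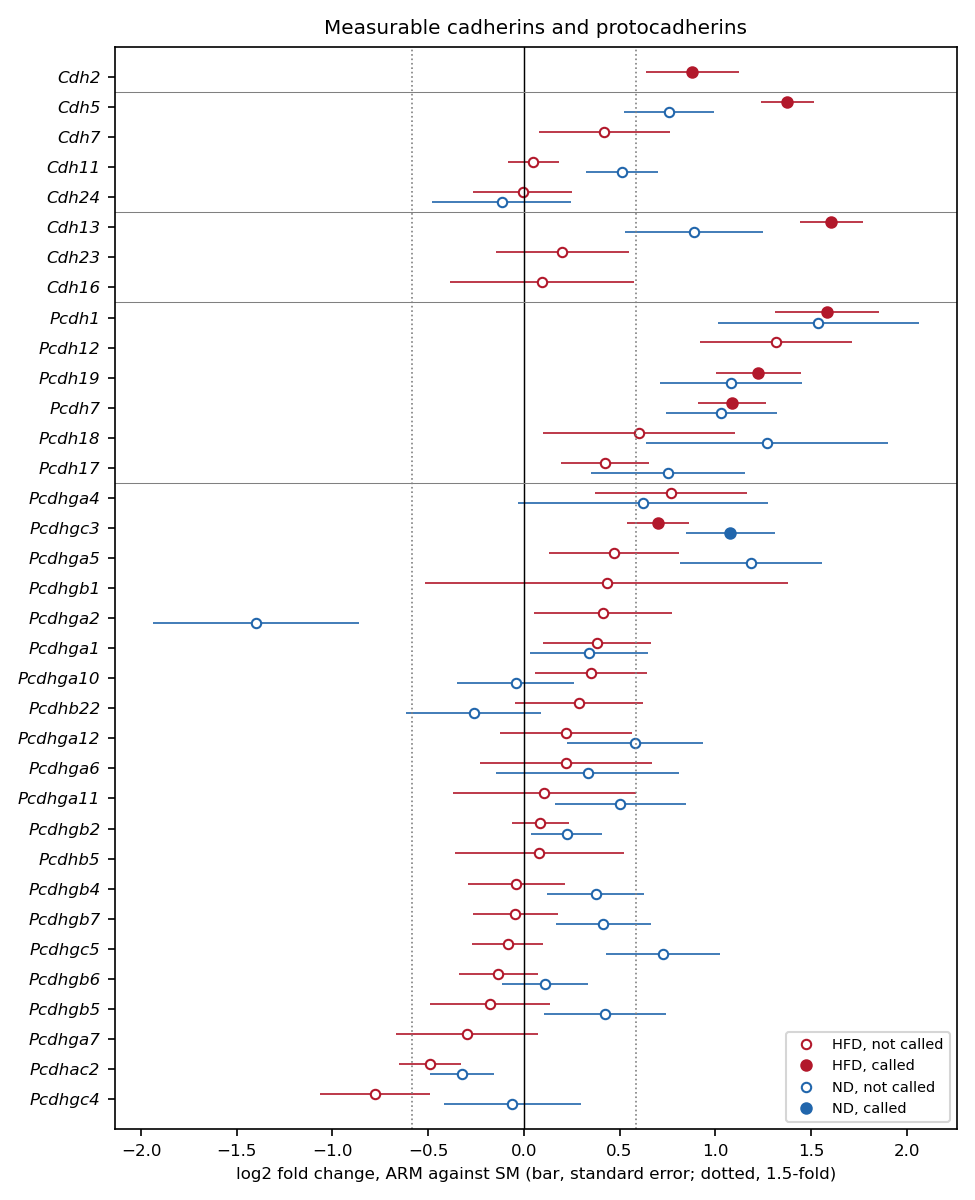
Log2 fold change of ARM against SM with its standard error (edgeR, n = 2 libraries per group) for the 35 members measurable in HFD mice (red) and the 27 measurable in ND mice (blue), set out by subfamily from type I cadherins at the top to clustered protocadherins at the bottom. Filled points are called, and all 7 of them in HFD mice and the 1 in ND mice lie right of the dotted line at a fold change of 1.5.

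Cdh5 encodes VE-cadherin (Entrez 12562, mm10 chromosome 8, 104101613 to 104144504). Its FPKM was 11.4 and 10.5 in HFD ARM and 4.90 and 3.37 in HFD SM. In ND mice it was 2.94 and 5.62 in ARM and 2.34 and 2.70 in SM. The groups did not overlap in either diet, but ND ARM replicate 1 lay closer to the SM libraries than to ND ARM replicate 2. The log2 fold change was 1.38 ± 0.14 (SE, n = 2 per group, edgeR adjusted p = 0.00023) under HFD and 0.76 ± 0.24 (adjusted p = 0.0902) under ND. Without ND ARM replicate 2 the ND value was 0.21 (edgeR adjusted p = 0.842), and without ND ARM replicate 1 it was 1.16 (0.00182). The difference between diets was 0.61 ± 0.33 on the log2 scale (edgeR adjusted p = 0.749).

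Cdh5 kept step with other endothelial transcripts across the libraries. Its FPKM differed 4.88-fold between the highest and the lowest of the 8 libraries. Divided by the summed FPKM of the 15 endothelial markers, which did not include Cdh5, it lay between 0.177 and 0.205, a 1.16-fold range. Against the fibroblast list the same ratio differed 4.88-fold, against the pericyte list 1.56-fold and against the adipocyte list 5.19-fold. These ratios were chosen after the values were seen and describe 8 libraries, from 2 tables made differently, with no test. By other assays the study reported higher Cdh5 and Pcdh1 mRNA in ARMs (RT-PCR). It also reported more VE-cadherin on the surface of ARMs from obese mice (flow cytometry). For lean mice it named the integrin CD49a, and not VE-cadherin, as raised on the surface. ND ARM replicate 2, the higher ND ARM library for Cdh5, was also the higher for the endothelial list.

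Cdh13 (T-cadherin, Entrez 12554, chromosome 8, 118140017 to 119324929) had the largest log2 fold change of the members called in HFD mice. Its FPKM was 2.34 and 2.33 in HFD ARM against 0.77 and 0.74 in HFD SM, with a log2 fold change of 1.61 ± 0.16 (edgeR adjusted p = 0.00028). In ND mice the FPKM was 0.59 and 1.03 in ARM against 0.34 and 0.51 in SM, with a log2 fold change of 0.89 ± 0.36 (edgeR adjusted p = 0.230). The groups did not overlap in either diet. Like Cdh5, Cdh13 stayed near a fixed ratio to the endothelial list, 0.0290 to 0.0429, a 1.48-fold range while its FPKM differed 6.88-fold. Against the pericyte list the range was 2.06-fold, against the adipocyte list 4.06-fold and against the fibroblast list 4.98-fold. Cdh5 and Cdh13 were also the only members called in HFD mice whichever of the 4 libraries was left out.

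Pcdh12, a protocadherin of vascular endothelium, was near the detection limit. Its FPKM was 0.38 and 0.29 in HFD ARM, 0.18 and 0.08 in HFD SM, 0.10 and 0.20 in ND ARM and 0.10 and 0.12 in ND SM. The HFD groups did not overlap, and the log2 fold change of 1.32 ± 0.39 missed the threshold (edgeR adjusted p = 0.0634). In ND mice it had 8 to 16 counts per library and was not tested. Its ratio to the endothelial list had a 1.84-fold range, against 4.75-fold for its FPKM. Against the pericyte, fibroblast and adipocyte lists the range was 2.78-fold, 4.77-fold and 5.60-fold.

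**Figure D2:**
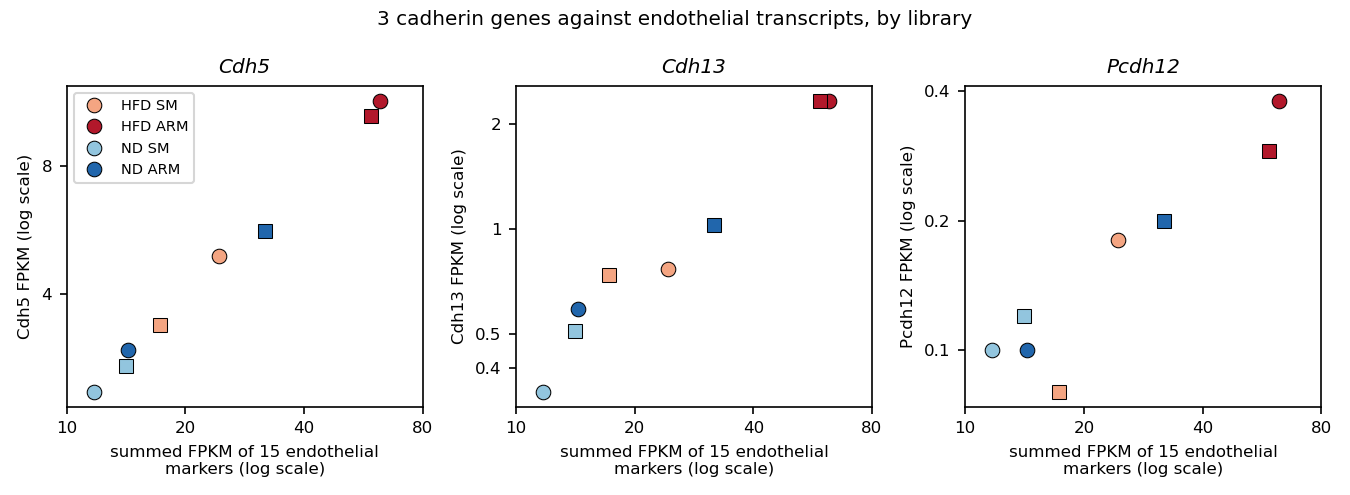
FPKM of Cdh5, Cdh13 and Pcdh12 (vertical, log scale) against the summed FPKM of 15 endothelial markers (horizontal, log scale), with 1 point per library, circles for replicate 1 and squares for replicate 2. The HFD ARM libraries (dark red) lie at the upper right, and the ND ARM libraries (dark blue) stand apart, replicate 1 beside the ND SM libraries at a sum of 14.3 and replicate 2 at 31.8.

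The measurable non-clustered protocadherins, 6 in HFD mice and 5 in ND mice, all had log2 fold changes above 0. Their medians were 1.16 and 1.08, and 48.5% and 46.5% of all genes lay above 0. In CPM, ARM libraries lay above SM libraries without overlap for each of them, against 26.2% (HFD) and 21.1% (ND) of all genes. In FPKM, Pcdh17 overlapped in HFD mice (0.45 and 0.36 in ARM, 0.35 and 0.41 in SM). Pcdh18 had an ARM and an SM library at the same FPKM in each diet (0.10 in HFD, 0.13 in ND). Of these members, 3 of 6 were called in HFD mice and 0 of 5 in ND mice, against 4.46% and 3.55% of all genes called higher. Over the measurable members outside the clusters the medians were 0.74 (14 members, 6 called) and 0.89 (9 members, 0 called), and over the clustered ones 0.11 (21 members, 1 called) and 0.36 (18 members, 1 called).

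Pcdh1 (Entrez 75599, chromosome 18, 38185914 to 38212048) is an adhesion protein of airway epithelium. Its FPKM was 1.19 and 1.44 in HFD ARM, 0.55 and 0.30 in HFD SM, 0.43 and 0.56 in ND ARM and 0.04 and 0.29 in ND SM. ARM libraries were above SM libraries in each diet. The log2 fold change was 1.58 ± 0.27 (edgeR adjusted p = 0.0052) under HFD and 1.54 ± 0.53 (0.129) under ND, where the SM libraries had 3 and 17 counts. Without ND SM replicate 2 the ND value was 3.18, and without ND SM replicate 1 it was 0.81. In HFD mice the call was lost without ARM replicate 1 (edgeR adjusted p = 0.0507) or ARM replicate 2 (0.114).

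Pcdh7 (Entrez 54216, chromosome 5, 57716145 to 58133236) encodes a protocadherin first described in brain and heart. Its FPKM was 0.96 and 0.98 in HFD ARM against 0.44 and 0.45 in HFD SM, and 0.81 and 1.38 in ND ARM against 0.41 and 0.64 in ND SM. The difference was close in size in the 2 diets, with log2 fold changes of 1.09 ± 0.18 (edgeR adjusted p = 0.0040) under HFD and 1.03 ± 0.29 (0.0587) under ND. The difference between diets was 0.04 ± 0.38 on the log2 scale. The HFD call was lost without either ARM library (edgeR adjusted p = 0.0567 and 0.0652).

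Across the 8 libraries Pcdh7 kept no such step with the endothelial list. Its ratio to that list had a 3.67-fold range over the 8 libraries, wider than the 3.37-fold range of its FPKM. Against the adipocyte list the range was 1.71-fold and against the fibroblast list 1.78-fold. The endothelial ratio lay between 0.0154 and 0.0261 in HFD mice and between 0.0350 and 0.0565 in ND mice, without overlap. Its FPKM lay between 0.44 and 0.98 and between 0.41 and 1.38, so within each diet the ratio varied less. Whether the offset in the ratio comes from diet or from table cannot be told apart.

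Pcdh19 (Entrez 279653, chromosome X, 133582860 to 133689044) encodes a protocadherin that associates with N-cadherin in neurons. Its FPKM was 0.43 in both HFD ARM libraries against 0.17 and 0.19 in HFD SM, and 0.22 and 0.36 in ND ARM against 0.13 and 0.14 in ND SM. The log2 fold change was 1.22 ± 0.22 (edgeR adjusted p = 0.0072) under HFD and 1.08 ± 0.37 (0.130) under ND. As for Pcdh7, the HFD call was lost without either ARM library (edgeR adjusted p = 0.0984 and 0.0746). Unlike Pcdh7, Pcdh19 had its narrowest ratio range over the 8 libraries against the endothelial list, 2.23-fold, while its FPKM differed 3.31-fold. Against the fibroblast, adipocyte and pericyte lists its ranges were 2.46-fold, 2.55-fold and 2.88-fold. Pcdh17 and Pcdh18, also measurable in both diets, had mean FPKM values of 0.08 to 0.41 and were not called.

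Promoters of the other called members were left out here, which is no statement on whether they have a RefSeq promoter entry. The promoters shown are those of Pcdh7 and Pcdh19, called members with an entry among the RefSeq promoter sequences (GRCm38.p6, the assembly of mm10). Each run ends before the most upstream annotated start in the window, 5′ to 3′ on the gene's strand, and capitals mark the GC box. They were searched on both strands for an AP-1 motif (TGANTCA), an ETS motif (GGAAGT) and a GC box (GGGCGG), of which AP-1 and ETS are factor families the study looked for in open chromatin.
Pcdh19, chrX:133689045-133689243, minus strand: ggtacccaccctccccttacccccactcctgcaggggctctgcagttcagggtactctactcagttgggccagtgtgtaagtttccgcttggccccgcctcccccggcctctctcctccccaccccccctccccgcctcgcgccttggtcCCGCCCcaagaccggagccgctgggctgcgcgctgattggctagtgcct
Pcdh7, chr5:57717831-57717966, plus strand: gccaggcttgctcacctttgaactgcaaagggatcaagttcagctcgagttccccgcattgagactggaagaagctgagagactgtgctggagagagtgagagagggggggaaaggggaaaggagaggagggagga
The Pcdh19 stretch of 199 bases had 1 GC box, read here on the opposite strand, and 0 AP-1 and 0 ETS matches. Of 32851 RefSeq promoters cut to the same length, 24.4% had a GC box, 5.55% an AP-1 match and 14.5% an ETS match. The Pcdh7 stretch of 136 bases, which lies inside the span RefSeq gives for the gene, had none of the 3, against 14.8%, 3.53% and 9.52% of promoters at that length. The letters of these windows are a description and no test of binding.

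Cdh2 (N-cadherin, Entrez 12558, chromosome 18, 16588877 to 16809246), a classical cadherin of neurons, muscle and fibroblasts, was the least secure call. Its FPKM was 0.42 and 0.34 in HFD ARM against 0.22 and 0.20 in HFD SM, with a log2 fold change of 0.88 ± 0.24 (edgeR adjusted p = 0.0471). Its estimated counts, 70.1 and 56.6 in HFD ARM and 37.1 and 32.9 in HFD SM, were not whole numbers. The call was lost with any 1 of the 4 libraries left out (edgeR adjusted p from 0.0692 to 0.297) and under DESeq2 (0.341). In ND mice it had 1 to 5 counts per library and was not tested. Over the 8 libraries, with these low ND counts, its FPKM differed 42-fold and its ratio to the endothelial list 16.4-fold. Against the pericyte, fibroblast and adipocyte lists the ratio differed 10.8-fold, 26.1-fold and 41.4-fold. The Cdh2 values of the 2 tables do not imply the same gene length. The length implied by count and FPKM was 8964 bases in the HFD table and 4689 in the ND table, while over members tested in both diets this ratio lay between 1.02 and 1.08. Cdh2 was not alone in this among members not tested in ND mice. Cdh23 had implied lengths of 7751 and 4254 bases in the same order, and Cdh4, with few counts, 3604 and 6488. Pcdh15 had 13824 and 6585, Cdh22 5366 and 2902, and Pcdh10 6401 and 4096. In ND mice these members had 0 to 14 counts per library, so the lengths are rough. They also varied between libraries. Cdh23 had 5 counts at 0.05 FPKM in ND ARM replicate 1 but 8 counts at 0.22 in ND SM replicate 2.

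The classical cadherins Cdh11, known from fibroblasts and osteoblasts, and Cdh24 were not called. Cdh11 had FPKM values of 1.80 and 1.87 in HFD ARM and 1.60 and 1.86 in HFD SM, which overlapped. In ND mice the values were 1.77 and 2.07 in ARM and 1.28 and 1.42 in SM, which did not. The log2 fold changes were 0.05 ± 0.13 under HFD (edgeR adjusted p = 0.879) and 0.51 ± 0.19 under ND (0.172). The difference between diets was -0.48 ± 0.22 (edgeR adjusted p = 0.643). Cdh24 had FPKM values of 0.82 to 1.19 in the 4 HFD libraries and 0.55 to 0.75 in the 4 ND libraries, with log2 fold changes of -0.01 and -0.12, so both groups overlapped in each diet. Cdh7, Cdh16 and Cdh23, measurable in HFD mice only, had mean FPKM values of 0.13 to 0.34 there and were not called.

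**Figure D3:**
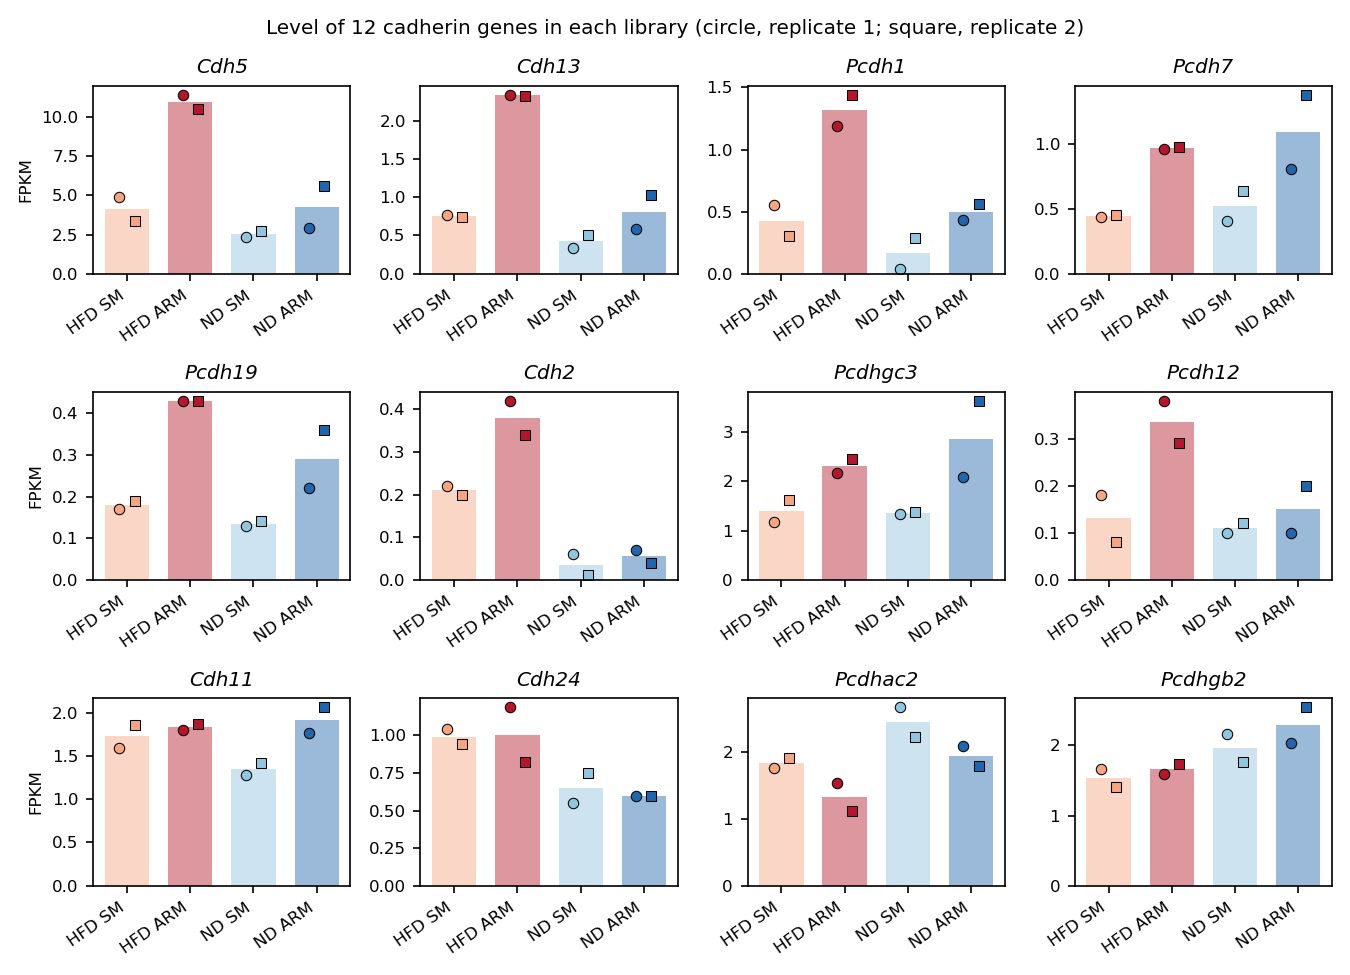
FPKM in each library (circle, replicate 1; square, replicate 2) with the group mean as a bar from 0, for 12 members in 4 groups of 2 libraries. For Cdh5, Cdh13, Pcdh1, Pcdh7, Pcdh19 and Pcdhgc3 both ARM libraries lie above both SM libraries in each diet, while Cdh24 and Pcdhgb2 overlap and the ARM values of Pcdhac2 lie below its SM values.

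The gamma protocadherins shared reads. All 22 gamma genes had estimated counts that were not whole numbers in both tables, but their sum in each library came to a whole number within rounding (938 and 996 in HFD ARM, 870 and 912 in HFD SM, 934 and 991 in ND ARM, 683 and 732 in ND SM). Reads had thus been divided between the genes of the cluster. Values of single gamma genes are therefore uncertain, and the sum is the firmer measure. Counts that were not whole numbers were not confined to this cluster. Outside the clusters 11 members had them in HFD mice, Cdh2 and Cdh11 among them, and 1 in ND mice, Cdh11.

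Summed over the 22 genes, the gamma cluster stood at 50.8 and 53.5 CPM in HFD ARM against 46.1 and 48.5 in HFD SM, and at 57.0 and 68.8 in ND ARM against 46.0 in both ND SM libraries. ARMs were higher in each diet without overlap. The sums are given as a description, with no test.

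Pcdhgc3 (Entrez 93706, chromosome 18, 37806410 to 37841873), a C-type gamma gene, was the member called in both diets. Its FPKM was 2.18 and 2.45 in HFD ARM against 1.17 and 1.62 in HFD SM, and 2.10 and 3.64 in ND ARM against 1.34 and 1.38 in ND SM. The log2 fold change was 0.70 ± 0.16 (edgeR adjusted p = 0.0230) under HFD and 1.08 ± 0.23 (0.0132) under ND. Its share of the cluster's counts was 20.2% and 21.3% in HFD ARM against 12.1% and 15.95% in HFD SM, and 16.6% and 24.2% in ND ARM against 13.3% and 13.5% in ND SM. The shares of ARM and SM libraries did not overlap in either diet. The ND call was lost without ND ARM replicate 2 (log2 fold change 0.62, edgeR adjusted p = 0.239), and the HFD call under DESeq2 (0.0914) and without any library but HFD SM replicate 2 (edgeR adjusted p from 0.0627 to 0.240). Over the 8 libraries its FPKM had a 3.11-fold range, its ratio to the fibroblast list a 1.86-fold range and that to the endothelial list a 4.19-fold range. The endothelial ratio lay between 0.0350 and 0.0939 in HFD mice and between 0.0977 and 0.147 in ND mice.

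**Figure D4:**
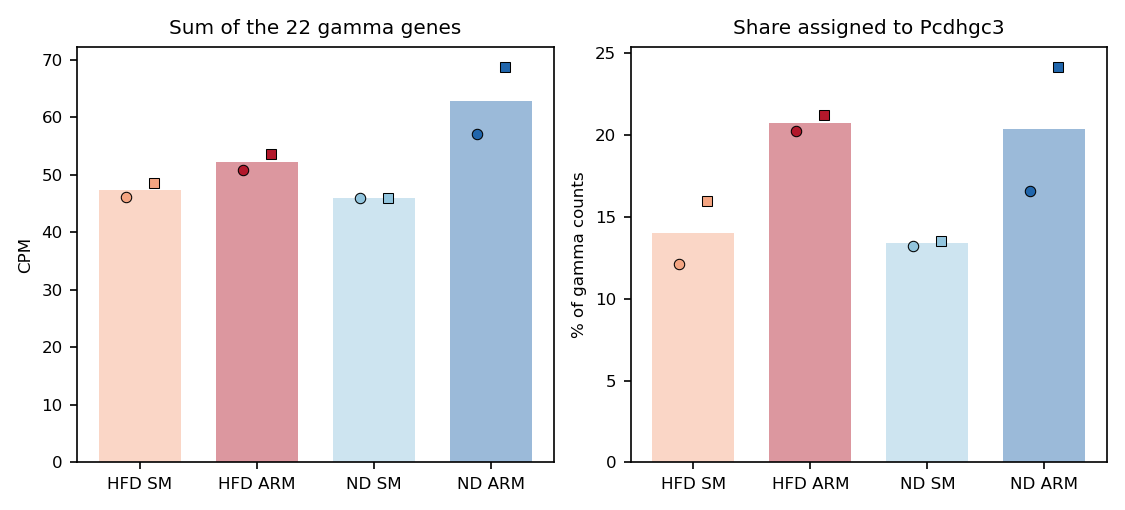
Left, the CPM summed over the 22 gamma protocadherin genes. Right, percent of those counts assigned to Pcdhgc3, by group with 1 point per library (circle, replicate 1; square, replicate 2) and the mean as a bar from 0. ARM libraries lie above SM libraries of the same diet in both panels, and the 2 ND ARM libraries are the farthest apart.

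The neighbours of Pcdhgc3 at the end of the cluster differed from it. Pcdhgc4 had FPKM values of 0.54 and 0.30 in HFD ARM against 0.64 and 0.77 in HFD SM, with a log2 fold change of -0.78 ± 0.29 (edgeR adjusted p = 0.127), and 0.31 and 0.48 against 0.35 and 0.48 in ND mice. Pcdhgc5 had 0.98 and 0.97 in HFD ARM against 0.90 and 1.13 in HFD SM, and 0.88 in both ND ARM libraries against 0.40 and 0.67 in ND SM. Its log2 fold changes were -0.08 ± 0.19 and 0.73 ± 0.30 (edgeR adjusted p = 0.847 and 0.239), and the difference between diets missed the threshold (edgeR adjusted p = 0.6004).

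Of the other gamma genes, Pcdhgb2 was the most abundant, with FPKM values of 1.59 and 1.73 in HFD ARM, 1.66 and 1.41 in HFD SM, 2.03 and 2.55 in ND ARM and 2.17 and 1.77 in ND SM, overlapping in each diet. Pcdhga5 did not overlap in either diet, with 0.32 and 0.30 against 0.18 and 0.26 in HFD mice and 0.53 and 0.55 against 0.18 and 0.29 in ND mice. Its log2 fold change in ND mice, 1.19 ± 0.37, missed the threshold (edgeR adjusted p = 0.0932). Pcdhga2 had 0.27 and 0.24 in HFD ARM against 0.21 and 0.16 in HFD SM, but 0.15 and 0.05 in ND ARM against 0.30 and 0.25 in ND SM. Thus the ARM libraries were higher in one diet and lower in the other, at 3.49 to 22.4 estimated counts per library. Pcdhga3 and Pcdhga8 were named after their values were seen. Pcdhga3, not measurable in either diet by itself, had the reverse order, with 0.07 in both HFD ARM libraries against 0.09 and 0.13 in HFD SM and 0.09 and 0.21 in ND ARM against 0.05 and 0.07 in ND SM. Pcdhga8 had 0.07 and 0.15 in HFD ARM against 0.08 and 0.06 in HFD SM, which overlapped, and 0.05 and 0.03 in ND ARM against 0.17 and 0.09 in ND SM.

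Pcdhgb4, Pcdhgb5, Pcdhgb6 and Pcdhgb7 had log2 fold changes of -0.04, -0.18, -0.13 and -0.04 under HFD and of 0.37, 0.42, 0.11 and 0.41 under ND, none of them called. In FPKM, Pcdhgb4 had 0.56 and 0.83 in HFD ARM, 0.60 and 0.81 in HFD SM, 0.96 and 0.92 in ND ARM and 0.70 and 0.76 in ND SM. Pcdhgb5 had 0.34 and 0.55, 0.57 and 0.40, 0.55 and 0.62, and 0.49 and 0.37 in the same groups. Pcdhgb6 had 0.73 and 0.68, 0.83 and 0.68, 1.02 and 1.21, and 0.98 and 1.08. Thus Pcdhgb4 and Pcdhgb5 overlapped in HFD mice only, and Pcdhgb6 in both diets. Pcdhgb7 had FPKM values of 0.84 and 0.65 in HFD ARM, 0.70 and 0.80 in HFD SM, 1.02 and 0.98 in ND ARM and 0.78 and 0.72 in ND SM, again apart in ND mice only. Pcdhga1 and Pcdhga10 lay between 0.32 and 0.68 FPKM in all 8 libraries, with log2 fold changes of 0.38 and 0.35 (HFD) and of 0.34 and -0.04 (ND). The remaining 6 measurable gamma genes had mean FPKM values of at most 0.47 and none was called.

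In the alpha cluster the values lay on the other side of 0. Pcdhac2, an alpha gene with constant exons shared with the rest of its cluster, had FPKM values of 1.53 and 1.12 in HFD ARM against 1.75 and 1.90 in HFD SM, and 2.09 and 1.79 in ND ARM against 2.67 and 2.22 in ND SM. ARM values were below SM values in each diet, without overlap. The log2 fold changes of -0.49 ± 0.16 under HFD and -0.32 ± 0.17 under ND missed the threshold (edgeR adjusted p = 0.0912 and 0.400). The 3 alpha genes listed in HFD mice summed to 8.50 and 6.18 CPM in ARM against 9.70 and 10.6 in SM. The 2 listed in ND mice summed to 11.1 and 9.51 against 14.1 and 11.6. These alpha genes, Pcdhac2 among them, also had estimated counts that were not whole numbers in each table. Their summed counts were whole numbers (157 and 115 in HFD ARM, 183 and 200 in HFD SM, 182 and 137 in ND ARM, 209 and 185 in ND SM). Of the beta cluster, Pcdhb22 had FPKM values of 0.47 and 0.46 in HFD ARM, 0.31 and 0.44 in HFD SM, 0.95 and 0.47 in ND ARM and 0.95 and 0.78 in ND SM, and Pcdhb5 was measurable in HFD mice only. Neither was called.

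The catenin genes Ctnnb1, Ctnna1, Ctnnd1 and Jup were far more abundant than the cadherins and were called in neither diet. Over the 8 libraries beta-catenin (Ctnnb1) had 83.2 to 105 FPKM, alpha-catenin (Ctnna1) 76.8 to 94.6, Ctnnd1 70.7 to 79.3 and plakoglobin (Jup) 88.3 to 131. The largest of their log2 fold changes in size was that of Jup in HFD mice, -0.21 ± 0.07 (edgeR adjusted p = 0.0809). Of the 10 catenins and linkers tested, 2 were called higher in HFD mice and 0 in ND mice, against 4.46% and 3.55% of all genes tested. In ND mice there were 0 also at an unadjusted p under 0.05 by edgeR. The 2 called in HFD mice were scarce. Pkp2, a desmosomal plakophilin, had 0.60 and 0.66 FPKM in HFD ARM against 0.14 and 0.20 in HFD SM (log2 fold change 1.83 ± 0.37, edgeR adjusted p = 0.0115). Ctnnd2, a catenin best known from neurons, had 0.84 and 0.78 against 0.37 and 0.47 (log2 fold change 0.92 ± 0.21, edgeR adjusted p = 0.0228).

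**Figure D5:**
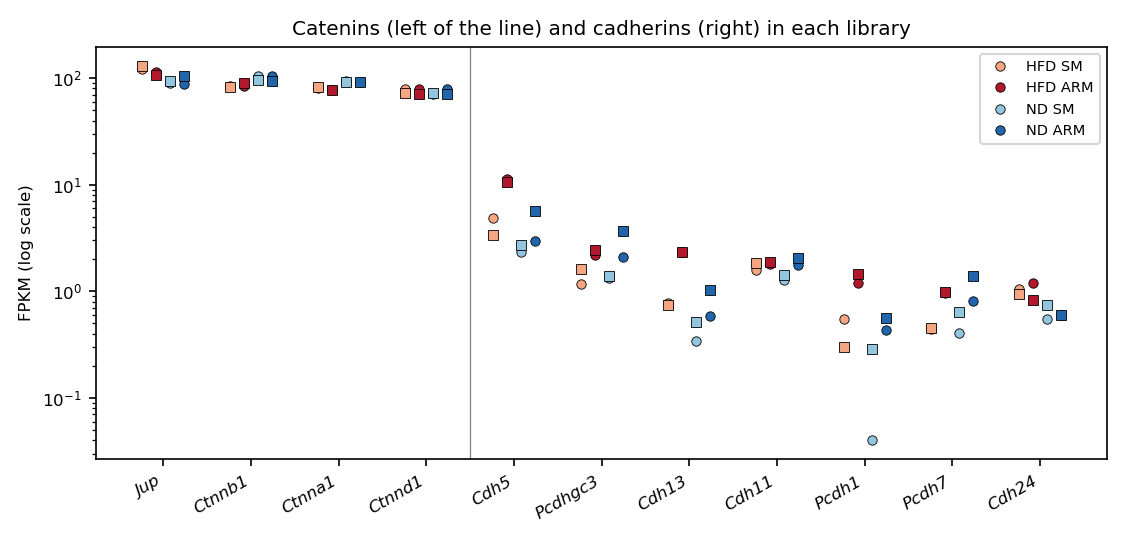
FPKM on a log scale in each of the 8 libraries for 4 catenins (left of the line) and 7 cadherins (right), with circles for replicate 1 and squares for replicate 2. The catenins lie between 70.7 and 131 FPKM in all groups, and the highest cadherin value is 11.4, for Cdh5 in HFD ARM.

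Of 10 genes that cut cadherins at the cell surface or in the membrane (Adam10 and the subunits of gamma-secretase among them), 0 were called in either diet by edgeR. At an unadjusted p under 0.05 there were 1 in HFD mice, Adam15, and 0 in ND mice. Adam15 was lower in HFD ARM, at 204 and 214 FPKM against 252 and 259 in HFD SM. Its log2 fold change of -0.32 ± 0.06 passed the adjusted p threshold (edgeR adjusted p = 0.0083) but not the 1.5-fold threshold. The other cadherin superfamily genes, which have cadherin repeats but other symbols, had 9 of 21 listed measurable in HFD mice and 8 of 14 in ND mice. Of those measurable, 3 of 9 were called higher in HFD mice and 1 of 8 in ND mice, against 4.46% and 3.55% of all genes tested. Their median log2 fold changes were 0.73 and 0.50, against -0.01 and -0.02 over all genes. Fat4 and Dchs1 encode partners that bind each other across cell contacts. Fat4 had 0.18 and 0.11 FPKM in HFD ARM against 0.04 and 0.07 in HFD SM (log2 fold change 1.40 ± 0.39, edgeR adjusted p = 0.0473), and Dchs1 had 1.31 and 1.26 against 0.68 and 0.97 (0.62 ± 0.15, edgeR adjusted p = 0.0327). Ret, a receptor kinase with cadherin-like repeats, had 0.30 in both HFD ARM libraries against 0.09 in both HFD SM libraries (1.67 ± 0.33, edgeR adjusted p = 0.0101). In ND mice the call was Fat1, at 0.22 and 0.38 against 0.13 in both SM libraries (1.23 ± 0.32, edgeR adjusted p = 0.0380). None of the 4 nectins, a separate family of contact proteins, was called in either diet by edgeR, with 1 in HFD mice and 0 in ND mice at an unadjusted p under 0.05.

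Levels in the 2 diets can be set side by side but not compared, because the 2 tables were made differently and diet and table cannot be told apart. Mean FPKM of Cdh5 was 11.0 ± 0.64 (SD, n = 2) in HFD ARM, 4.28 ± 1.90 in ND ARM, 4.14 ± 1.08 in HFD SM and 2.52 ± 0.25 in ND SM. Mean FPKM of Pcdh7 was 0.97 ± 0.01 in HFD ARM, 1.10 ± 0.40 in ND ARM, 0.45 ± 0.01 in HFD SM and 0.53 ± 0.16 in ND SM. The SD in ND ARM was the widest of the 4 groups for both genes.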

How the data were processed

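RNA-seq of sorted, pooled macrophages was sequenced and processed at BGI. For each diet the authors deposited 1 table with an estimated count, an FPKM and a TPM per gene and library; the TPM and the columns of group averages were not used. The build was mm10 per the labels, and the aligner, counting program and annotation are not given in the sources used here. The estimated counts deposited by the authors were not whole numbers (tolerance 0.005) for 48 members in the HFD table and 25 in the ND table. They were rounded and fitted over all genes of each table with edgeR 4.0.16 in R 4.3.3 (TMM, filterByExpr, quasi-likelihood test, Benjamini-Hochberg adjustment, group as the only term), with calls at more than 1.5-fold and an adjusted p below 0.05. SE is the log2 fold change over the root of the F statistic. The difference between diets was tested in all 8 libraries. FPKM values are the authors' deposited levels. Members and lists were chosen with earlier results of these data known. Values per library are given for members called by any tool, with an unadjusted p under 0.05, or with a group mean of at least 0.5 FPKM. Alternatives were DESeq2 1.42.0, limma 3.58.1 on log2(FPKM + 1) and log2(FPKM + 0.1), other scalings, filters and thresholds, a replicate block, and each library left out. The scripts were tested on simulated data. All 75 members matched RefSeq by Entrez ID. Depth was 14508824 to 19040133 counts per library. Same-numbered libraries were not treated as pairs, as nothing in the labels ties them. Plots were made in matplotlib 3.10.9 under Python 3.11.15.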

Additional observations from a re-analysis of the deposited data

Results flagged for a closer look

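Pcdhga2 lay on opposite sides in the 2 diets: its ARM values were above its SM values in HFD mice and below them in ND mice, without overlap. The log2 fold change of ARM against SM was 0.41 (edgeR adjusted p = 0.558) in HFD mice and -1.40 (0.192) in ND mice, so it was called in neither. The difference between the diets was 1.795 on the log2 scale, with an unadjusted p of 0.0153 and an adjusted p of 0.443 in edgeR's quasi-likelihood test over all genes. It had 3.49 to 22.4 estimated counts per library, part of them reads divided among the gamma genes. Pcdhga3 lay on opposite sides too, in the reverse order: its ARM values were below its SM values in HFD mice and above them in ND mice, without overlap. The difference between the diets was -2.021 on the log2 scale, with an unadjusted p of 0.0327 and an adjusted p of 0.6004 by edgeR. It had 3.26 to 14.14 estimated counts per library, was measurable in neither diet by itself, and is also a gamma gene with divided reads. The cause was not tested for either gene.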

How the results depend on the processing

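The 2 libraries per group and the low counts are the main limits. Library totals, RLE size factors and a minimum of 10 counts in every library gave the same counts of called members as the reported fits. The 7 members higher in HFD mice became 3 without a filter, 3 by limma on log2(FPKM + 1), which tested 8 members and only 4 of the 7, 2 on log2(FPKM + 0.1) (40 tested) and 0 on log2(FPKM + 1) without a filter, and 2 to 6 with a library left out (2 without either ARM library). The 1 higher in ND mice became 4 without a filter, 8 under the threshold of the study's methods (log2 beyond 0.6, unadjusted p), 2 in the fit of 8 libraries, 0 in each limma fit (6 tested on log2(FPKM + 1) with the filter) and 0 to 4 with a library left out (0 without ARM replicate 2, 4 without ARM replicate 1 or SM replicate 2). None was lower, but the methods' threshold gave 1 in HFD mice (Pcdhgc4) and 1 in ND mice (Pcdhga2). With the replicate number as a block, 8 members were higher in HFD mice (Pcdh12 added), and 8 were higher and 1 lower in ND mice (Cdh5, Cdh13, Pcdh1, Pcdh7, Pcdh19, Pcdhga5, Pcdhgc3 and Pcdhgc5, and Pcdhga2). Deviations of same-numbered libraries correlated at -0.0014 in HFD mice and 0.256 in ND mice, and over all genes the block moved the calls from 634 to 673 and from 458 to 786. No member was called different between diets under any alternative run. Beyond the numbers tested, the cause of these moves was not tested.

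Log2 fold changes near 0 turned sign, none of them called. Cdh24 in HFD mice became 0.0221 with library totals, 0.0047 with at least 10 counts, 0.0051 by limma on log2(FPKM + 1) with or without a filter, and 0.00073 on log2(FPKM + 0.1). With a library left out, in HFD mice Cdh24 ranged from -0.32 to 0.26, Cdh11 from -0.0481 to 0.16, Pcdhgb2 from -0.0298 to 0.21, Pcdhgb4 from -0.33 to 0.21, Pcdhgb5 from -0.57 to 0.13, Pcdhgb6 from -0.27 to 0.0237, Pcdhgb7 from -0.26 to 0.15 and Pcdhgc5 from -0.24 to 0.0944. In ND mice Cdh24 ranged from -0.31 to 0.12, Pcdhb22 from -0.85 to 0.13, Pcdhga10 from -0.18 to 0.0723, Pcdhgb6 from -0.0130 to 0.22 and Pcdhgc4 from -0.40 to 0.22.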
